A study of Homo sapiens with 2 samples.

Results

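The genes described here are IGF1R, INSR, IRS1 and IRS2, the receptors for IGF1 and insulin and the 2 main adaptor proteins that the receptors phosphorylate. Peaks were assigned to a gene when their summit lay in a fixed window of hg19 around it, and 9 of the 9717 peaks in the list (0.0926%) fell in the 4 windows. The genes were selected on their peaks in this list (the position and fold enrichment of FLAG peaks near them), so the number of peaks in each window, their positions and their strength describe these loci and test nothing. The study mapped FOXO3, a forkhead transcription factor, in U87MG, an established human glioblastoma cell line, by CETCh-seq, in which genome editing adds an epitope tag, here FLAG, to the endogenous protein. There were 2 chromatin samples, 1 FLAG immunoprecipitation and 1 input, both of U87MG cells with the genotype given as WT that had received LY294002, a compound that blocks phosphoinositide 3-kinase (PI3K). The WT label stands beside an assay that edits the endogenous gene, and the labels do not say whether the cells of the input carried the tag. They give neither the dose and duration of LY294002 nor whether the tagged cells were 1 clone, and cells without the tag or without the inhibitor were not analysed here. With 1 immunoprecipitation there is no replicate error, and every interval below covers counting error only.

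Insulin and the insulin-like growth factors bind the receptor tyrosine kinases INSR and IGF1R, which phosphorylate IRS1 and IRS2. The phosphorylated adaptors recruit PI3K, and AKT then phosphorylates FOXO proteins and keeps them out of the nucleus, so inhibition of PI3K lets FOXO factors act on chromatin. Genes of this same pathway, INSR and IRS2 among them, are known FOXO targets in other tissues, an arrangement usually described as feedback.

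The promoters of the genes with a peak at the 5′ end are shown because 3 of the 4 genes had such a peak. RefSeq start sites in GRCh38.p14 were found for 4 of 4 genes, and the 250 bases before the start are given 5′ to 3′ on the strand of the gene. Capitals mark a match to one of 4 searched motifs, on either strand: TGTTTAC, the forkhead core; TTGTTTTG, the insulin response sequence; and their shorter cores TGTTTA and TGTTTT, each of which lies within the longer motif. IRS2 is at chr13:109786584-109786833 (minus strand), IGF1R at chr15:98648289-98648538 (plus strand) and INSR at chr19:7294415-7294664 (minus strand), all in GRCh38.p14.
IRS2: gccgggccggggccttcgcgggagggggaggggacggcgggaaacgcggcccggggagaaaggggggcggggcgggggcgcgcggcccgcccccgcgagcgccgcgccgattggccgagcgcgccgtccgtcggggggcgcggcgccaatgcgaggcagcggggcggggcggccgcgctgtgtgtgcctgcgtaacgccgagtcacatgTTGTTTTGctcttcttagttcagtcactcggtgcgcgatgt
IGF1R: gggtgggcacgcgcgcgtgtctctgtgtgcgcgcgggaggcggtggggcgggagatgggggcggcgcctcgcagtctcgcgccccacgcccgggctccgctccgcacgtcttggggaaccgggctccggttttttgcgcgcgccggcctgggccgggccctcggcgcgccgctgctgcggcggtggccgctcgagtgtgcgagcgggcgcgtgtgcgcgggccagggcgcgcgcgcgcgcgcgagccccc
INSR: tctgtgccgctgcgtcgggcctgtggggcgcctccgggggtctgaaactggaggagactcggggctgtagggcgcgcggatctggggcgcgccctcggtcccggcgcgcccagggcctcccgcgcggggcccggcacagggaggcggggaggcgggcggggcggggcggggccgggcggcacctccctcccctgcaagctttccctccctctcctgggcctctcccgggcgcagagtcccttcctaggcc

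The insulin response sequence occurred in the IRS2 promoter, from 41 to 34 bases before the start and on the strand of the gene. Of 35116 RefSeq promoter sequences of 300 bases, which run from 250 bases before to 50 after the start, 1.68% held TTGTTTTG on either strand, 3.42% held TGTTTAC, 12.3% held TGTTTA and 19.3% held TGTTTT. The motifs were chosen with the promoter sequences known, so these shares do not measure how unusual a match is. None of the 4 genes had TGTTTAC in these 300 bases. INSR had none of the 4 motifs. The IRS2 match also holds the shorter core TGTTTT, from 40 to 35 bases before the start. The matches in IGF1R and IRS1 lay after the start. IGF1R had TGTTTA from 45 to 50 bases after it, where the window ends, and IRS1 had TGTTTT from 40 to 45 bases after it. These sites are shown with the bases before them, for IGF1R at chr15:98648565-98648588 (plus strand) and for IRS1 at chr2:226799771-226799794 (minus strand), GRCh38.p14.
IGF1R site: cggcgaggctggggctctTGTTTA
IRS1 site: aggctccgtcacgTGTTTTtctcc
A match is a description of the letters and not a binding site. The RefSeq starts of GRCh38.p14 were not matched to the hg19 5′ ends from which the peaks are measured below. Alternative starts of a gene can lie far apart, so no distance between a motif and a summit was measured. Which side of the RefSeq start a summit lies on, and whether the printed bases include it, was not determined.

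The promoters of all 4 genes were rich in G and C. The G+C content of the 300 bases was 79.7% in IGF1R, 79.3% in IRS1, 78.3% in INSR and 75.7% in IRS2, against a median of 58.7% over all RefSeq promoters. CG dinucleotides numbered 55 in IGF1R, 50 in IRS2, 47 in IRS1 and 36 in INSR, against a median of 14. IRS1, which had no peak at its 5′ end, was within the range of the other 3 genes in both measures.

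FLAG enrichment was strongest at IGF1R and INSR, and it was near the typical level of the list at IRS1 and IRS2. The fold enrichment is the authors' value for the summit of a peak, the ChIP pileup over the background that the peak caller estimated there. The median fold of the list was 3.88, with quartiles of 3.36 and 4.798. IGF1R reached 16.6, INSR 11.4, IRS2 4.35 and IRS1 4.26. Of the 9 peaks, 3 had a fold of 10 or more, against 2.26% of the list, and 4 had a fold of 5 or more, against 22.1%. A −log10 q of 10 or more was reached by 5 of the 9, against 25.5%. The genes were chosen with these values known, so these shares are not evidence of an excess. The 3 genes with a peak near the 5′ end were IGF1R, INSR and IRS2, and the summits lay 358, 335 and 35 bp upstream of it.

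**Figure D1:**
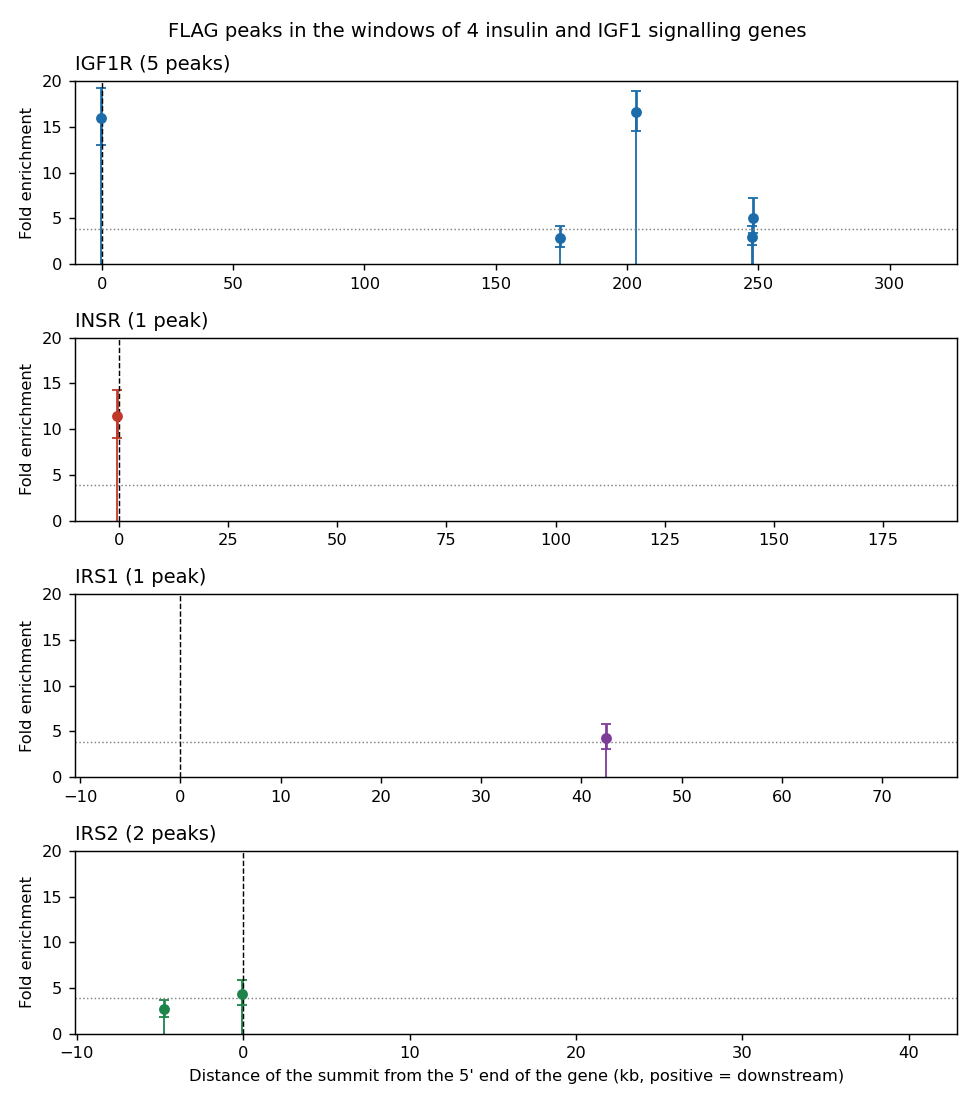
Fold enrichment (y axis) of each FLAG peak against the distance of its summit from the 5′ end of the gene in kb (x axis, positive downstream), in 1 panel per gene with the window of that gene as the x range. Bars are 95% Poisson intervals of the ChIP pileup, the dashed line is the 5′ end and the dotted line the median fold of the list, 3.88. IGF1R, INSR and IRS2 have a peak at the dashed line, IRS1 has none, and the highest peak lies 203 kb inside IGF1R.

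IGF1R, the receptor tyrosine kinase for IGF1 and IGF2, had 5 peaks in a window of 336 kb, which runs from 99182000 to 99518000 on chromosome 15. Of the tiles of this length that cover chromosomes 1 to 22 and X, 4.28% held at least 5 summits, and 0.0923% held at least 2 with a fold of 10 or more. The peak at the 5′ end, chr15:99191708-99192025, had its summit 358 bp upstream of the hg19 5′ end used here. Its summit had 104 ChIP tags against a background of 5.59 tags, a fold of 15.9 (95% interval 13.1 to 19.3), and its −log10 q was 86.4. It ranked 21st of 9717 by fold and was the third of 291 on its chromosome.

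A second strong IGF1R peak, chr15:99395320-99396333, lay 203 kb downstream of the 5′ end. It had 232 tags against a background of 13.0, a fold of 16.6 (14.5 to 18.9), and 0.219% of the tiles held a peak as strong. By −log10 q, at 191, it was the ninth peak of the list, and by fold the 19th. The RefSeq span of IGF1R is 316 kb, so this summit lies inside the gene. Whether it lies in an exon or an intron was not analysed here. RefSeq places the noncoding genes IRAIN and MIR4714 and the uncharacterised loci LOC124903560 and LOC124903561 within the same span. The fold of the downstream peak was 1.04 times that of the 5′ peak, with an interval from 0.83 to 1.33, so the order of these peaks was within counting error. Their pileups differed more than their folds did, because the background of the downstream peak was 3.57 times the genome-wide level and that of the 5′ peak 1.53 times. The genome-wide level, 3.65 tags per position, was taken to be the lowest background recovered for any peak of the list.

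The other 3 peaks of IGF1R were weaker. The peak chr15:99366368-99366570 lay 29.1 kb before the strong downstream peak, with 23 tags against 7.45 and a fold of 2.84 (1.84 to 4.20). It was close to the limit of the list, since at that background at least 20 tags were needed to reach the lowest −log10 p called. A close pair followed 44.1 kb beyond the strong peak, at chr15:99439614-99439854 and chr15:99440098-99440391. Their summits were 473 bp apart, with 243 bp between the called intervals. The first had 32 tags against 10.2 and a fold of 2.94 (2.04 to 4.11), and the second 28 tags against 4.75 and a fold of 5.05 (3.41 to 7.21). The fold of the second was 1.72 times that of the first, but it had fewer tags, and the interval of the ratio ran from 0.99 to 2.93. The background, and not the pileup, set which of the pair had the higher fold.

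INSR, the insulin receptor, had 1 peak in a window of 202 kb from 7102000 to 7304000 on chromosome 19. Of the tiles of that length, 36.1% held at least 1 summit and 0.909% held a peak as strong. The peak, chr19:7294200-7294499, had its summit 335 bp upstream of the 5′ end. It had 76 tags against a background of 5.73, a fold of 11.4 (9.05 to 14.3) and a −log10 q of 52.2. It ranked 135th of the list and was the third of 121 peaks on chromosome 19. No summit was called in the rest of the window, although the RefSeq span of the gene is 182 kb.

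The 5′ peaks of the receptor genes resembled each other in distance and background, and the fold in this library was higher at IGF1R. The fold at IGF1R was 1.39 times that at INSR, with an interval from 1.03 to 1.90. The strong downstream peak of IGF1R was 1.45 times the INSR peak (1.12 to 1.92). A summit is the highest point of a peak, so its tag number is on average too high, and these intervals do not correct for that.

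IRS2, an adaptor of both receptors, had 2 peaks in a window of 53 kb from 110396000 to 110449000 on chromosome 13. Of the tiles of that length, 2.80% held at least 2 summits. The tiles pool all the chromosomes covered, whereas chromosome 13 alone held 1080 of the 9717 peaks, and shares within it were not measured. The peak chr13:110438861-110439011 spanned the 5′ end, with its summit 35 bp upstream. It had 40 tags against a background of 8.42, a fold of 4.35 (3.14 to 5.89) and a −log10 q of 11.2. In the list 34.9% of peaks had at least this fold, and 5.71% of the tiles held such a peak. The other IRS2 peak, chr13:110443564-110443804, lay 4.75 kb upstream of the 5′ end, with 34 tags against 12.1 and a fold of 2.67 (1.87 to 3.70). The peak at the start was 1.63 times as enriched as the upstream one, with an interval from 1.01 to 2.67. The pileups of 40 and 34 tags were close, and the local backgrounds differed more. RefSeq places the span of the coding locus LOC124903211 0.501 kb beyond the 5′ end of IRS2, and which of these genes the upstream peak belongs to was not tested.

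IRS1, the other adaptor, had 1 peak in a window of 88 kb from 227586000 to 227674000 on chromosome 2. Of the tiles of that length over all the chromosomes covered, 20.1% held at least 1 summit. The peak, chr2:227620897-227621231, lay 42.5 kb downstream of the 5′ end, inside the RefSeq span of 68.5 kb. It had 39 tags against a background of 8.38, a fold of 4.26 (3.06 to 5.79) and a −log10 q of 10.6, and 9.63% of the tiles held a peak as strong. No summit was called at the 5′ end of IRS1. In RefSeq the span of the coding gene RHBDD1, a rhomboid protease, lies 0.339 kb beyond the 5′ end of IRS1. At the genome-wide background a site needed 13 tags and a fold of 3.01 to enter the list, and at the backgrounds of these 9 peaks a fold between 2.14 and 2.78. Weaker enrichment at the 5′ end of IRS1 was therefore not detectable at this depth.

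The IRS2 start peak and the IRS1 peak had nearly the same fold. The fold of the IRS2 start peak was 1.02 times that of the IRS1 peak, with an interval from 0.64 to 1.63, which includes 1. The INSR peak was 2.63 times the IRS2 start peak (1.79 to 4.01), and the 5′ peak of IGF1R was 3.66 times it (2.56 to 5.50). The second peak of the close pair in IGF1R, in contrast, was 1.16 times the IRS2 start peak, with an interval from 0.68 to 1.91. These ratios describe peaks whose folds were known when the genes were chosen, they come from 1 library, and their intervals are not adjusted for the number of pairs.

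**Figure D2:**
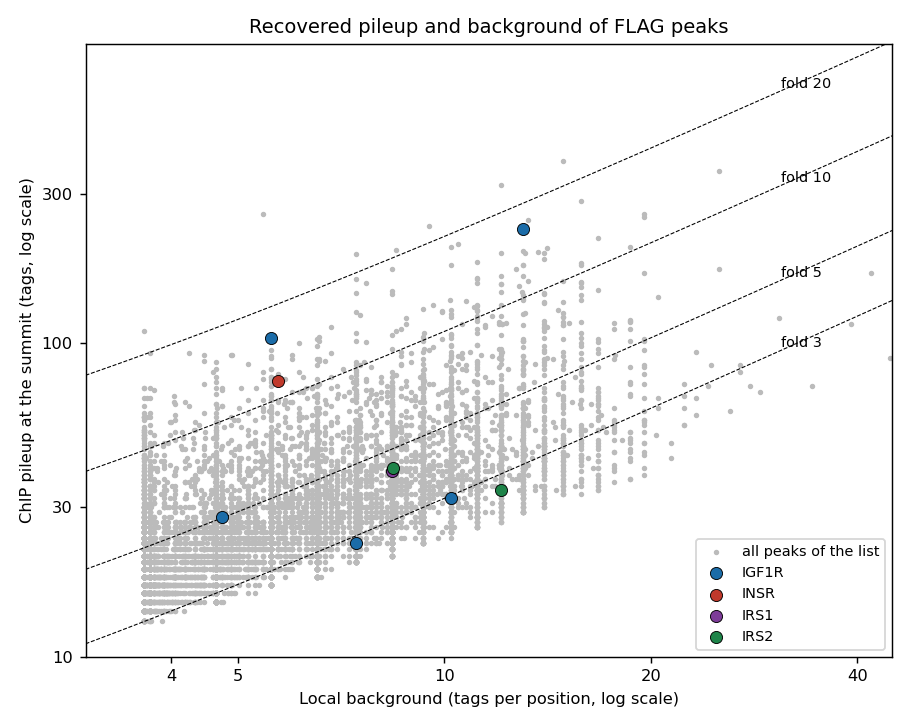
ChIP pileup at the summit (y axis, tags) against the local background (x axis, tags per position), both on log scales, for all peaks of the list in grey and the 9 peaks of the 4 genes in colour. Dashed lines mark folds of 3, 5, 10 and 20, and 15 peaks outside the axes are not drawn. The IGF1R peaks with 104 and 232 tags lie between the lines for 10 and 20, and the IRS1 and IRS2 points with 39 and 40 tags nearly coincide below the line for 5.

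Local background differed among the 9 peaks, from 4.75 tags at the second peak of the close pair to 13.0 tags at the strong downstream peak of IGF1R. None of the 9 lay at the genome-wide background, where 19.1% of the list did. Within IGF1R alone the background covered this whole range. The copy number of these loci in U87MG was not measured.

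The strong peaks differed in width more than in fold. The median width of the 220 peaks with a fold of 10 or more was 569.5 bp, with quartiles of 481 and 653 bp. The strong downstream peak of IGF1R was 1014 bp wide, and only 1 of the 220 was wider. Its summit stood 305 bp from the left edge and 708 bp from the right, and 5.91% of the 220 were at least as lopsided. The 5′ peaks of the receptor genes were narrow for their fold. INSR, at 300 bp, was the second narrowest of the 220 and IGF1R, at 318 bp, the fourth. The first and the third, at 280 and 315 bp, lay on chromosomes 8 and 20. The INSR peak was nearly symmetric, with 146 and 153 bp on the sides of the summit, and 90.5% of the 220 were at least as lopsided. The 5′ peak of IGF1R had 134 and 183 bp on the sides, and 41.8% of the 220 were at least as lopsided. The IRS2 start peak was 151 bp wide, where the narrowest peak of the list had 150 bp. Width was examined after the values had been seen, and it derives from the same pileup as the fold.

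**Figure D3:**
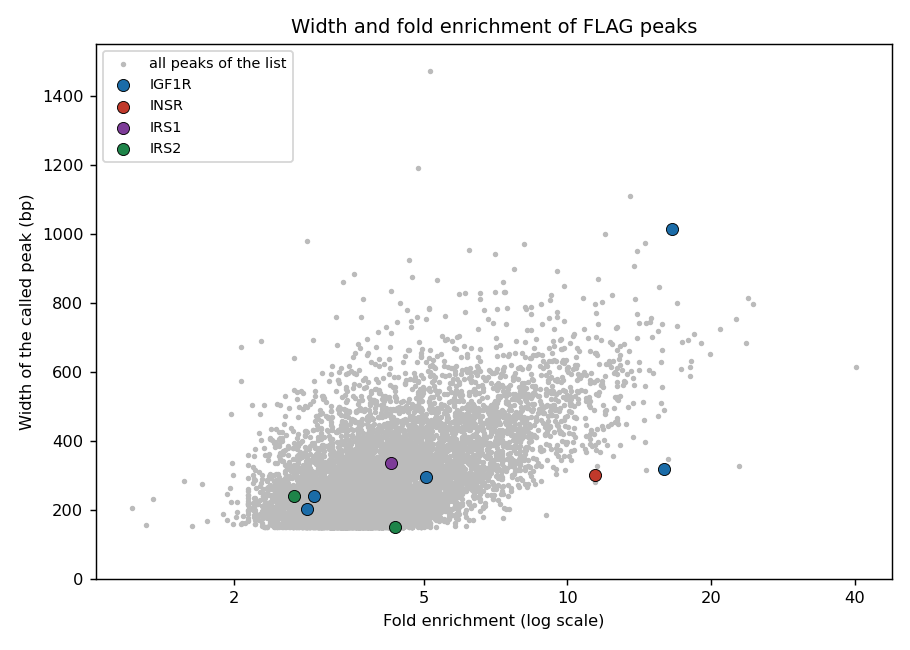
Width of the called peak in bp (y axis) against fold enrichment (x axis, log scale) for all peaks of the list in grey and the 9 peaks of the 4 genes in colour. At similar folds of 15.9 and 16.6, the IGF1R peaks are 318 and 1014 bp wide, and the INSR and IGF1R 5′ peaks lie at the lower edge of the cloud for their fold.

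The surroundings of the 4 genes differed. Left of the IGF1R window the nearest summit was 4375 kb from its edge, at chr15:94806599-94806803 with a fold of 3.57, and on the right it was 234 kb away with a fold of 3.94. ARRDC4 is the coding neighbour on the left in RefSeq. At INSR the nearest summits outside the window were 154 kb to the left, with a fold of 7.60, and 391 kb to the right, with a fold of 3.31. IRS1 had one 21.7 kb beyond the left edge of its window, with a fold of 3.86, and IRS2 one 27.5 kb beyond the left edge of its own, with a fold of 2.67. On their right the nearest were 107 and 122 kb away, with folds of 4.18 and 2.99. Within 1 Mb of the strongest peak of each gene there were 19 summits at IRS1, 16 at IRS2, 8 at IGF1R and 6 at INSR. These numbers include all peaks of the gene's own window, which were 5 at IGF1R, 2 at IRS2, 1 at IRS1 and 1 at INSR. The chromosomes themselves differed in their number of peaks, with 1080 on chromosome 13 (IRS2), 801 on chromosome 2 (IRS1), 291 on chromosome 15 (IGF1R) and 121 on chromosome 19 (INSR).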

How the data were processed

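The labels' protocols state fixation in 1% formaldehyde for 10 min, quenching for 5 min and sonication for 10 min. Trimmomatic, HISAT2 and MACS2 were used with build hg19, per the submitters' processing notes, which give no role or version. For the read filters, the peak threshold and the control library the sources used here give nothing. The peak list of the FLAG library was analysed, and no per-library depth is given with it. The deposited fold is a linear ratio, the deposited significance values are −log10 p and −log10 q, and the deposited score restates 10 times the −log10 q without decimals and was not used further.

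The pileup and background of each peak were recovered by solving the deposited fold (pileup plus 1 over background plus 1) and −log10 p (upper Poisson tail) together, which gave back every −log10 p to within 5.0e-04. On data simulated from these same formulas, this recovered 500 of 500 peaks. That checks the solving step only, and not whether the deposited values follow the formulas. The simulation did not reach the lowest folds or the highest backgrounds of the list. Intervals of folds are exact 95% Poisson intervals of the pileup, and those of ratios are exact conditional (Clopper-Pearson) intervals of 2 pileups. They cover counting error alone: the estimate of the background and variation between cultures are left out, and tags are not independent molecules. No test between conditions was possible. Windows and 5′ ends were set by the rule that chose the genes. Every gene of the rule and every peak in its window is named, and starts count from 1. The genes, windows and motifs were chosen with earlier results of these data and, for the motifs, the promoter sequences known. Other genes of the pathway were not analysed here, since no hg19 annotation was used. Promoter sequences, names and gene spans are from RefSeq (GRCh38.p14), with no conversion of coordinates. Python 3.11.15, NumPy 2.4.6, SciPy 1.17.1 and pandas 2.3.3 were used. The alternatives tried were stricter q and fold limits, merged summits, wider windows, interval overlap, other forms of the fold and interval middles.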

Additional observations from a re-analysis of the deposited data

How the results depend on the processing

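Of 44 alternative values over 12 results, 32 stayed close to the main value and 12 moved. Close meant within 1.5 times for a number of peaks, within the counting interval for a fold, or within 0.5 of the called width for a distance. Limits on −log10 q left 3 peaks at IGF1R and 1 at IRS2 (at 5) or 2 and 1 (at 10). With a fold of 5 or more it was 3 at IGF1R, 0 at IRS1 and 0 at IRS2, and INSR kept 1 peak under each of these limits. Windows widened by 50 kb on each side gave 2 peaks at IRS1 and 3 at IRS2, and the numbers at IGF1R and INSR did not change. With the genome-wide background in place of the local one, the highest fold was 50.1 at IGF1R, 16.6 at INSR, 8.60 at IRS1 and 8.81 at IRS2. These rises follow from the construction, since each of these peaks lay on a background above the genome-wide one. The search of peak sequences for motifs was not run, since no hg19 genome was used. No paired analysis was possible because there was 1 immunoprecipitation.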
